A study of Mus musculus with 6 samples.

Results

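The genes described here had at least 4-fold lower transcript levels in cultured mouse megakaryocytes without p45 than in wild-type (WT) megakaryocytes. p45, the product of Nfe2, is the larger of the subunits that form the transcription factor NF-E2. A gene belonged to the set if its probe was well above background on all 3 WT arrays, if every p45-/- array lay below every WT array, and if the mean log2 difference was -2 or lower. Of 16531 genes that could be scored, 84 met these conditions, which is 0.508%. Apart from these conditions, 11 genes were left out by name, of which 10 met them: Gp6, Clec1b, Mpig6b, Slc6a4, Tbxas1, Ttll11, Hsd3b1, P2ry12, Dgkg and Il1f9. The remaining 74 genes are the members, 56 with a gene symbol and 18 known only by an accession or probe name. Because the members were chosen by the level on each of the 6 arrays and by the difference of the group means, these values are given below as a description, and no test of them between the genotypes is reported.

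Both groups were primary megakaryocytes cultured from fetal livers at E13.5 (embryonic day), all on the C57BL/6 background. The p45-/- group and the WT group each held 3 samples, described as independent experiments in the design of the series, and no other treatment is named for either group. The labels name cultured fetal liver megakaryocytes as the source, yet their extraction protocol names whole embryos, and this contradiction could not be settled. How the cultures were grown, how pure they were, whether livers were pooled and which part of Nfe2 was deleted are not given in the sources used here. Each sample was read on 1 single-colour array, so a lower level of a gene can mean less RNA per cell or fewer cells that carry it, and these cannot be told apart.

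NF-E2 consists of p45 and a small Maf protein, and binds DNA elements built around the core TGAGTCA. Megakaryocytes, the precursors of platelets, become polyploid, build granules and internal membranes, and finally extend proplatelets along microtubules. Mice that lack p45 are known for a severe shortage of platelets, since their megakaryocytes grow but release hardly any. Adhesion receptors, granule proteins and cytoskeletal proteins made in the megakaryocyte are passed on to the platelet.

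A level is given throughout as log2 of the processed spot signal minus the 75th percentile of that array, so that 0 marks the percentile. Levels are compared only between arrays for the same probe, never between genes. The signal at the percentile was 135.5 on p45-/- array 1 and lay between 339.1 and 589.1 on the other arrays. p45-/- array 1 also stood apart in its correlation with the other arrays over the genes tested, at 0.782 to 0.884, while the other 5 arrays correlated with each other at 0.941 to 0.984. The lowest level well above background was -3.98 on p45-/- array 1, -5.46 and -5.89 on p45-/- arrays 2 and 3, and between -5.74 and -4.82 on the WT arrays, so weak transcripts were hardest to read on p45-/- array 1. The Nfe2 probe, whose position relative to the deletion is unknown, gave 4.86, 6.43 and 6.34 in p45-/- and 5.24, 6.57 and 6.33 in WT, and so did not check the genotype labels. All 15 listed megakaryocyte markers were measured, with a mean level of 4.38 to 6.08 on the p45-/- arrays and 5.05 to 6.31 on the WT arrays. Of these, 14 had a lower p45-/- mean, with a median difference of -0.43 that was -0.94 with scaling to each array's median and -0.12 with quantile normalization. limma called 0 of them, and their part in the members' differences was not tested. Over 18201 genes limma without a block called 0 genes at an adjusted p of 0.05, with 608 lower and 477 higher genes at an unadjusted p under 0.05. With the replicate number as a block it called 5 lower genes, or 0.0275%, and 0 higher. The members were part of this fit, and its calls serve only as the background over all genes. Scaling to each array's median shifted the difference of every gene by -0.51.

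The 74 members had a median log2 difference of -2.499, against -0.10 over all 16531 genes scored, and ranged from -5.14 to -2.004. By the measured readings 17 differed at least 8-fold and 6 at least 16-fold. With every p45-/- reading raised to at least the lowest level well above background on its array, these counts were 12 and 2. Groups that did not overlap in the lower direction were found for 9.3% of all genes scored, so the lack of overlap alone was common, and a mean difference below 0 for 59% of them. Under the same filter 54 genes, 0.327%, were at least 4-fold higher in p45-/- without overlap. This filter asked for detection on the WT arrays only, so genes detected only in p45-/- were not counted. The counts of lower and higher genes are therefore not on equal terms. Among the 18201 genes detected on every array of either group, 53.6% had a lower p45-/- mean. Just inside the threshold lay Smtn at -2.02, the cDNA AK012373 at -2.01 and Txk at -2.004. Just outside it lay Srxn1, Ggt5 and Gata2, all at -1.98, so the edge of the set does not mark a break in the distribution.

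**Figure D1:**
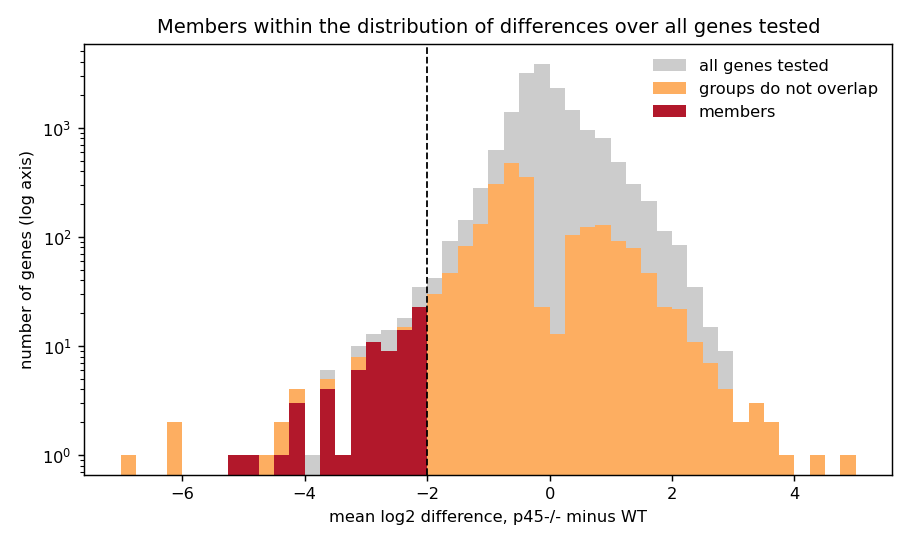
Number of genes (log axis) by mean log2 difference, p45-/- minus WT, in bins of equal width, with all 16531 genes scored in grey, genes whose groups do not overlap in orange and the 74 members in red. The dashed line marks the threshold of -2. The members lie in the left tail from there to -5.14, beside the genes left out by name and genes whose groups overlap.

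All 3 p45-/- arrays read 40 members well above background, while 19 members were above it on 2 of them, 8 on 1 and 7 on none. By array, p45-/- array 1 detected 40 of the 74 members, array 2 detected 61 and array 3 detected 65. For most members the p45-/- level was therefore lower but still measurable. For the 7 that no p45-/- array detected, among them the 2 with the most negative differences, a lower bound of the fold difference replaces it. It sets the WT mean against a p45-/- mean in which each array counts with its own reading or, if larger, with the lowest reading well above background on that array. This floor is not a detection limit. On p45-/- array 1 it was -3.98, yet ENSMUST00000103684 at -3.95 and Gsg1l at -3.91 were not well above background there. Every fold difference given as at least a value is meant under this floor only. The non-coding RNA gene A930003A15Rik, with the most negative difference of all members, was at least 9.69-fold lower, with levels of -6.28, -6.43 and -8.20 in p45-/- and -3.39, -1.08 and -1.02 in WT. The transcript ENSMUST00000058352 was at least 8.67-fold lower, with levels of -5.68, -7.14 and -7.62 in p45-/- and -3.24, -1.49 and -1.25 in WT. The transcript ENSMUST00000103684 was at least 10.5-fold lower, with levels of -3.95, -6.01 and -5.83 in p45-/- and -1.30, -2.12 and -1.62 in WT. These bounds hold only for the processed signal with that floor. With a normexp background correction and an offset of 50 the differences were -1.30 for A930003A15Rik, -0.73 for ENSMUST00000058352 and -0.90 for ENSMUST00000103684, all smaller than the bounds. The same held for Gsg1l at -0.85 and Phgr1 at -0.19. This correction also gave small differences for some members detected on at least 1 p45-/- array. They were -0.41 for AK034221, -0.63 for Dnah11, -0.84 for Nyx and -0.97 for XM_140499, while Slamf1 was at -3.15 and Ly6g6f at -2.70.

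**Figure D2:**
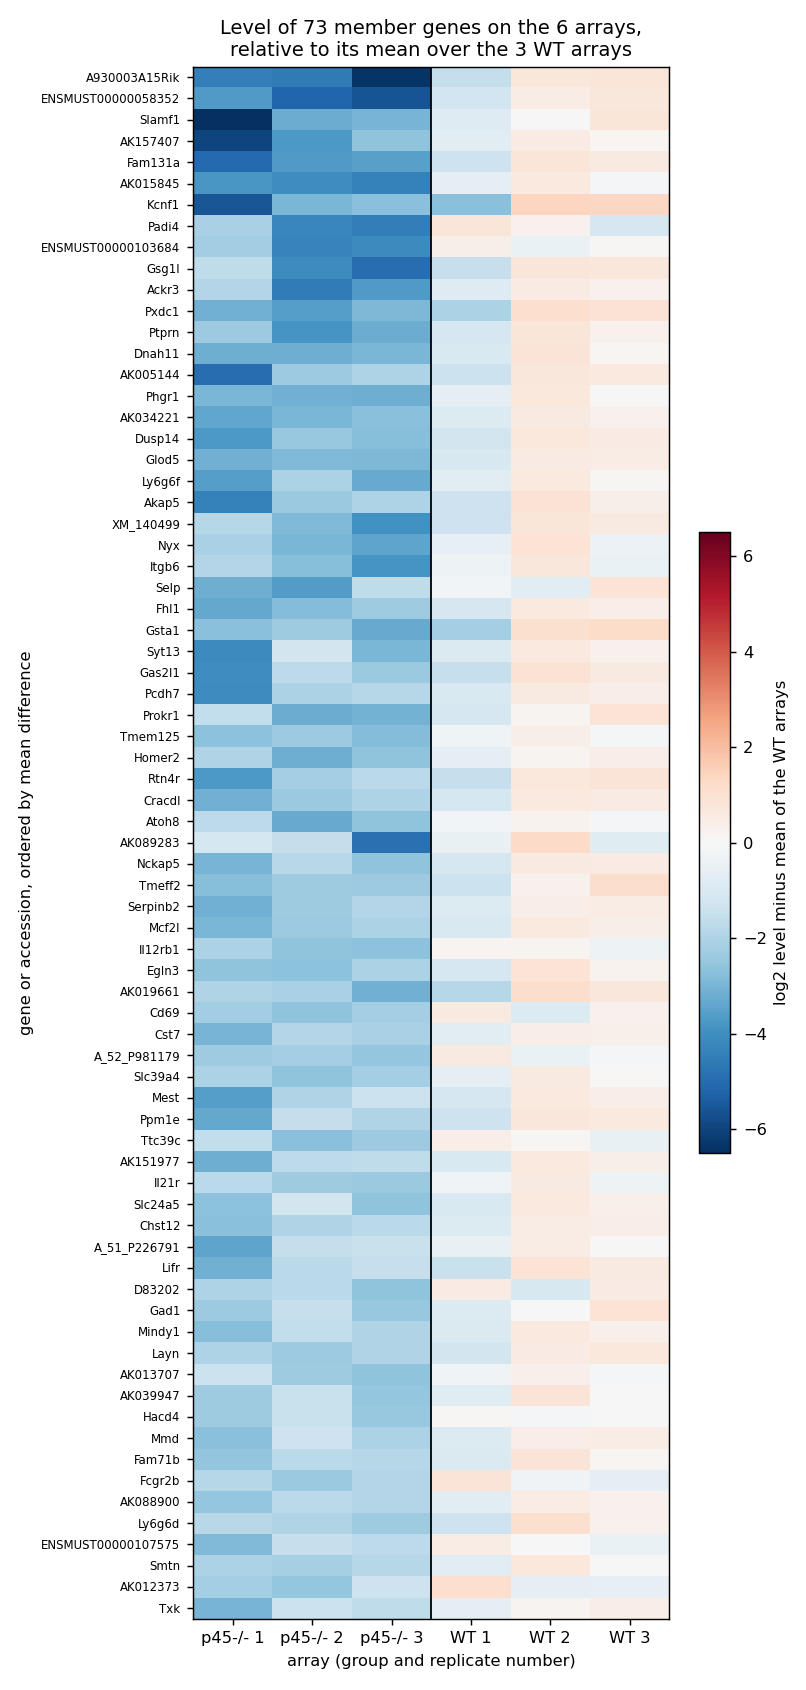
Level of 73 members on each of the 6 arrays, as log2 difference from the mean of its 3 WT arrays (colour), with p45-/- arrays left of the line and WT arrays right of it, ordered by mean difference from -5.14 at the top to -2.004 at the bottom. For 58 members WT array 1 is the lowest WT array, while a few, such as Padi4, Cd69 and Fcgr2b, are strongest there.

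Members with a symbol were sorted by what their proteins are known to do, after the members were known. Values on every array are given for the 24 members with the most negative differences and for members on a gene list, and those of other members were picked for display after they were seen. Receptors and adhesion proteins of the cell surface formed the largest of these groups, with 16 members and a median difference of -2.51. Slamf1 encodes SLAM, or CD150, a receptor that binds itself on neighbouring cells and marks blood stem cells and megakaryocyte progenitors. Its levels were -3.95, -0.43 and -0.24 in p45-/- and 1.96, 2.85 and 3.60 in WT, a log2 difference of -4.34 that was -3.14 without p45-/- replicate 1. p45-/- array 1 lay far below the other p45-/- arrays and was not well above background, and all WT arrays were higher. A second Slamf1 probe, above background on 0 of the p45-/- arrays, differed by -3.44. Selp encodes P-selectin, which is stored in alpha granules and brought to the surface of activated platelets to bind leukocytes. Its levels were -0.74, -1.20 and 0.81 in p45-/- and 2.29, 1.74 and 3.32 in WT, so that its group means were -0.38 ± 1.05 in p45-/- and 2.45 ± 0.80 in WT (SD, n = 3). Here the lowest WT array was number 2 and the highest p45-/- array was number 3, and the gap between the groups was 0.94. A second Selp probe, well above background on all 3 arrays of each group, differed by -2.43, but its groups overlapped.

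Ly6g6f encodes G6f, an immunoglobulin-type receptor of platelets, and had levels of -0.63, 0.90 and -0.33 in p45-/- and 2.22, 3.59 and 3.01 in WT. Ly6g6d, from the same cluster of the major histocompatibility complex on chromosome 17, had levels of -1.47, -1.65 and -1.98 in p45-/- and -1.001, 1.35 and 0.62 in WT. For Ly6g6d the WT group was spread over 2.36 log2 units, with array 1 only 0.47 above the highest p45-/- array. Counting protein-coding genes along the annotation, Ly6g6d lay 2 places from Ly6g6f and 2 places from Mpig6b, 1 of the genes left out by name. Further neighbours within 5 places were Cd69 with the left-out Clec1b, 4 places apart on chromosome 6, and Il21r with Gsg1l, 3 places apart on chromosome 7.

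Cd69 encodes an early activation antigen of leukocytes that platelets carry too, and its levels were -1.996, -2.36 and -1.93 in p45-/- and 0.85, -0.61 and 0.54 in WT. Its 3 p45-/- arrays lay within 0.43 of each other. Fcgr2b encodes the inhibitory Fc gamma receptor IIB of B cells and myeloid cells, with levels of 0.53, 0.0059 and 0.51 in p45-/- and 3.25, 2.16 and 1.78 in WT. Both genes were read well above background on every array. Ackr3 encodes CXCR7, an atypical receptor that takes up the chemokine CXCL12, and its levels were -0.76, -3.38 and -2.54 in p45-/- and 0.33, 1.68 and 1.44 in WT. For Ackr3 p45-/- array 1 came within 1.09 of the lowest WT array, while p45-/- arrays 2 and 3 lay much lower.

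**Figure D3:**
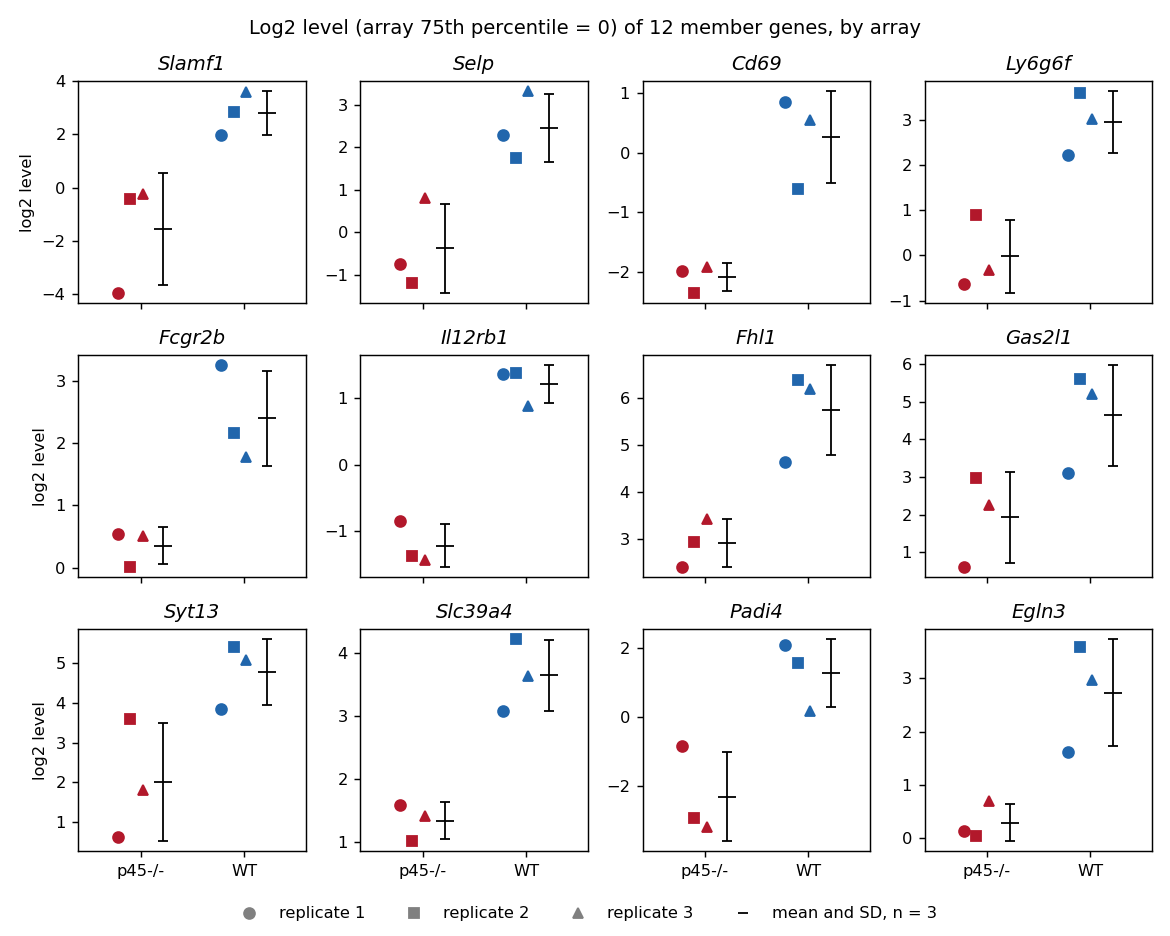
Log2 level (0 is the array's 75th percentile) of 12 members on each array, with p45-/- in red and WT in blue, a symbol for each replicate number, and black marks for the mean and SD of 3 arrays. The groups do not overlap for any of them, as the rule for members requires. Replicate 1 is the lowest WT array for Slamf1, Ly6g6f, Fhl1, Gas2l1, Syt13, Slc39a4 and Egln3 and the highest for Cd69, Fcgr2b and Padi4.

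Cytokine receptor genes among the members were Il12rb1, Il21r and Lifr. Il12rb1 encodes the beta 1 chain shared by the receptors for interleukins 12 and 23, and its levels were -0.85, -1.38 and -1.45 in p45-/- and 1.38, 1.39 and 0.89 in WT. Both groups were tight, with means of -1.23 ± 0.33 in p45-/- and 1.22 ± 0.28 in WT (SD, n = 3). Il21r, the interleukin 21 receptor chain, had levels of -0.87, -1.43 and -1.48 in p45-/- and 0.66, 1.47 and 0.59 in WT, and its WT array 2 stood above the others. Lifr, the receptor chain for leukaemia inhibitory factor, had a difference of -2.13, with a gap of only 0.013 between WT array 1 and the highest p45-/- array. Of the 25 other interleukin and cytokine receptor genes tested, 17 were lower and 8 higher in p45-/-, with a median of -0.29 against -0.048 over the 18201 genes tested. limma called 0 of them, with or without the replicate block, and those with the smallest unadjusted p were Il18rap at -0.91 (SE 0.27, limma adjusted p = 0.658) and Csf2ra at -1.08 (SE 0.41, limma adjusted p = 0.704).

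The remaining surface proteins had weak signals on the p45-/- arrays. Prokr1, a prokineticin receptor, had levels of -3.94, -5.56 and -5.39 in p45-/- and -3.40, -2.16 and -1.41 in WT and Rtn4r, the Nogo receptor, -6.12, -4.57 and -4.13 in p45-/- and -3.87, -1.69 and -1.55 in WT. The protocadherin gene Pcdh7 and Layn, a hyaluronan receptor gene, differed by -2.67 and -2.10. Itgb6, an integrin beta chain of epithelial cells, had levels of -6.11, -6.99 and -8.05 in p45-/- and -4.55, -3.47 and -4.62 in WT and was above background on 0 of the p45-/- arrays, so that it was at least 1.86-fold lower. Its other 2 probes differed by -0.27 and 0.61 and were above background on 1 and 0 of the WT arrays, and the difference of the probe shown became 0.15 with a normexp background correction. The platelet surface receptor list, with Selp, had a median of -0.58, which was -1.09 with median scaling and -0.34 with quantile normalization. Of the 30 other genes of this list tested, 27 were lower with a median of -0.58. limma called 0 of them without the block and 2 with it, both among the genes left out by name, and Pecam1 was at -0.80 (SE 0.39, limma adjusted p = 0.704) and Cd84 at -0.77 (SE 0.41, limma adjusted p = 0.704).

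Channels and transporters made up 4 members. Kcnf1 encodes a modifier subunit of voltage-gated potassium channels, and its levels were -4.96, -2.37 and -2.10 in p45-/- and -2.10, 1.98 and 1.94 in WT. The lowest WT array and the highest p45-/- array differed by 0.0043, so the separation of the groups rests on that margin. p45-/- array 1 was not well above background, and the mean difference was -2.84 without p45-/- replicate 1 and -5.10 without WT replicate 1. Slc39a4, the zinc importer ZIP4, had levels of 1.59, 1.01 and 1.42 in p45-/- and 3.09, 4.22 and 3.64 in WT, with all p45-/- arrays within 0.58 of each other. Slc24a5, a potassium-dependent sodium-calcium exchanger best known from pigment cells, had levels of 1.26, 2.77 and 1.32 in p45-/- and 2.95, 4.58 and 4.28 in WT. Gsg1l, an auxiliary subunit of glutamate receptors in neurons, stayed at background on the p45-/- arrays, with levels of -3.91, -6.34 and -7.24 in p45-/- and -3.77, -1.49 and -1.54 in WT and a difference of at least 7.06-fold. ABC and sterol transporters, none a member, had a median of 0.18 over 17 tested genes, or -0.33 with the shift of -0.51 that median scaling gives every gene. limma called 0 with or without the block, and Abcg5 was at -1.91 (SE 0.27, limma adjusted p = 0.262) and Abcg4 at 1.26 (SE 0.39, limma adjusted p = 0.675).

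Of the cytoskeletal genes, 4 were members. Gas2l1 encodes a protein that links actin filaments to microtubules, with levels of 0.60, 2.96 and 2.24 in p45-/- and 3.11, 5.599 and 5.197 in WT. Its p45-/- array 2 came within 0.15 of WT array 1, while WT arrays 2 and 3 lay far above every p45-/- array. Fhl1 encodes a LIM domain protein of muscle and other contractile cells, and had levels of 2.41, 2.94 and 3.43 in p45-/- and 4.65, 6.40 and 6.19 in WT. Smtn, the actin-binding protein smoothelin, had levels of -0.92, -1.02 and -0.75 in p45-/- and 0.42, 1.80 and 1.13 in WT. Dnah11, a motor subunit of the dynein of cilia, had levels of -5.63, -5.64 and -5.42 in p45-/- and -3.42, -1.62 and -2.29 in WT, and 1 of its p45-/- arrays was above background. The p45-/- readings of Dnah11 lay within 0.22 of each other, but those of arrays 1 and 2 were not well above background. Of 7 other tested genes of axonemal dynein and cilia, 4 were lower and 3 higher, with a median of -0.040. Over the list with Dnah11 the median was -0.10, or 0.077 without replicate 1 of both groups. limma called 0 of the others with or without the block, and Dnaic1 was at 0.72 (SE 0.46, limma adjusted p = 0.704) and Dnah9 at 2.23 (SE 1.72, limma adjusted p = 0.708). Within the list for the proplatelet cytoskeleton, which held none of the members, 27 of 30 tested genes were lower with a median of -0.69. That median was -1.20 with median scaling and -0.45 with quantile normalization. From this list limma called 0 genes without the block and 1, left out by name, with it. Tuba8 was at -1.72 (SE 0.37, limma adjusted p = 0.425) and Myh10 at 1.51 (SE 0.47, limma adjusted p = 0.681).

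Vesicle proteins were represented by Syt13, a synaptotagmin, and Ptprn, a phosphatase-like protein of secretory granules. Syt13 had levels of 0.61, 3.58 and 1.81 in p45-/- and 3.83, 5.41 and 5.07 in WT, and Ptprn -4.05, -5.54 and -4.92 in p45-/- and -2.78, -0.92 and -1.43 in WT. The p45-/- spread of Syt13 was wide, with array 2 within 0.25 of WT array 1. Granule biogenesis and secretion genes, a list with none of the members, were lower for 25 of 27 tested, with a median of -0.41. Vps33b was at -1.66 (SE 0.51, limma adjusted p = 0.675) and Lyst at -0.95 (SE 0.31, limma adjusted p = 0.704). Alpha granule contents had a median of -0.16 over 20 genes, which was 0.13 without replicate 1 of both groups, with Cxcl5 at 1.60 (SE 0.56, limma adjusted p = 0.704) and F13a1 at -1.002 (SE 0.40, limma adjusted p = 0.704). limma called 0 of either list with or without the block.

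Intracellular signalling proteins gave 6 members, all with WT array 1 as the lowest WT array. Dusp14, a dual-specificity phosphatase that acts on MAP kinases, had levels of -4.86, -3.62 and -3.91 in p45-/- and -2.35, -0.46 and -0.60 in WT. Akap5, an anchor for protein kinase A, had levels of -5.25, -3.29 and -2.88 in p45-/- and -2.18, 0.077 and -0.47 in WT. For both genes p45-/- array 1 was the lowest of all arrays, and 2 of the 3 p45-/- arrays were well above background. Homer2, a scaffold protein, Mcf2l, a guanine nucleotide exchange factor, Ppm1e, a protein phosphatase, and Txk, a Tec-family tyrosine kinase, differed by -2.57, -2.45, -2.28 and -2.004. The only transcription factor sorted as a member, Atoh8, of the basic helix-loop-helix class, had a difference of -2.53 and a gap of 1.57 between the groups. None of the listed megakaryocyte transcription factors was a member. Of 23 tested, 21 were lower with a median of -0.38, and limma called 0 with or without the block. Mafg, a small Maf partner of p45, was at -1.29 (SE 0.27, limma adjusted p = 0.418) and Gata2 at -1.98 (SE 0.42, limma adjusted p = 0.418).

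Enzymes and protease inhibitors numbered 9 members, 8 of them well above background on all 3 p45-/- arrays. Padi4 encodes the peptidylarginine deiminase that citrullinates histones in granulocytes. Its levels were -0.83, -2.95 and -3.19 in p45-/- and 2.09, 1.57 and 0.19 in WT. On WT array 3 the level was much closer to the p45-/- arrays than on WT arrays 1 and 2. Of 2 other Padi4 probes, 1 differed by -3.63 and was above background on all 3 p45-/- arrays. The other differed by -2.60, was above background on 0 of them and had overlapping groups. Egln3, a prolyl hydroxylase of the hypoxia pathway, had levels of 0.13, 0.046 and 0.70 in p45-/- and 1.62, 3.60 and 2.97 in WT. Gsta1, a glutathione transferase, had levels of -3.004, -2.57 and -3.56 in p45-/- and -2.502, 0.75 and 0.94 in WT, with WT array 1 only 0.068 above the highest p45-/- array. Serpinb2, plasminogen activator inhibitor 2, had levels of 1.35, 2.17 and 2.59 in p45-/- and 3.59, 4.93 and 4.97 in WT, and Cst7, the leukocyte protease inhibitor cystatin F, -0.44, 0.66 and 0.44 in p45-/- and 1.82, 2.97 and 2.91 in WT. Chst12, a chondroitin sulphotransferase, Gad1, a glutamate decarboxylase, Mindy1, a deubiquitinase, and Hacd4, of fatty acid elongation, differed by -2.14, -2.11, -2.10 and -2.08. Of 19 tested genes of eicosanoid synthesis and metabolism, none a member, 11 were lower with a median of -0.29. limma called 0 with or without the block, and Alox5ap was at -1.58 (SE 0.28, limma adjusted p = 0.352) and Mgst2 at -1.15 (SE 0.38, limma adjusted p = 0.704). The WT levels of Hacd4 were 3.77, 3.56 and 3.71, a narrow group.

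Promoter windows from RefSeq (GRCm38.p6), from 250 bases before to 50 after the start, were found for 47 members in 64 windows. They were searched on both strands for TGAGTCA, the core bound by NF-E2 and AP-1 factors, and for the extended site GCTGANTCA, where N is any base, so that part of its matches also hold the core. The core was in 1 of 47 members, 2.13%, against 4.64% of the 9749 scored genes with a promoter in the table and 5.95% of all 27025 genes in it. The extended site was in 3 of 47, 6.38%, against 1.32% and 1.37%. AGATAA of GATA factors was in 10.6% against 8.32%, GGAAGT of ETS factors in 21.3% against 32.7%, and TGTGGT of RUNX factors in 23.4% against 15.4% of the same scored genes. These shares describe letters in short windows, and the counts of 1 and 3 members are small. The windows of the 3 members with the extended site are shown because NF-E2 is the factor removed, written 5′ to 3′ on the gene's strand with the match in capitals.
Padi4, chr4:140774154-140774453, minus strand: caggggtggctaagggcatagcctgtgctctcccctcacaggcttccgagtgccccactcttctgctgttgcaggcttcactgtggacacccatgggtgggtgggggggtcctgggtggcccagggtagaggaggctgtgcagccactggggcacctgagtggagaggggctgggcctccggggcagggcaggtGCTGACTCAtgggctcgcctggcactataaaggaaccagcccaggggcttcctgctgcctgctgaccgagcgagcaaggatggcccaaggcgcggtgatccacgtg
Cst7, chr2:150570165-150570464, plus strand: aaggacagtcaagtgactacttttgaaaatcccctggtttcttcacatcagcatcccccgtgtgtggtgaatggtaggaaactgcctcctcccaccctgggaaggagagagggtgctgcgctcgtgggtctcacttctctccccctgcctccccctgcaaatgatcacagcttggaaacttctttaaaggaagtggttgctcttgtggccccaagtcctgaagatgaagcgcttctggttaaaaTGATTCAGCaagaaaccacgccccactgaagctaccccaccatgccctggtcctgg
Slc24a5, chr2:125067877-125068176, plus strand: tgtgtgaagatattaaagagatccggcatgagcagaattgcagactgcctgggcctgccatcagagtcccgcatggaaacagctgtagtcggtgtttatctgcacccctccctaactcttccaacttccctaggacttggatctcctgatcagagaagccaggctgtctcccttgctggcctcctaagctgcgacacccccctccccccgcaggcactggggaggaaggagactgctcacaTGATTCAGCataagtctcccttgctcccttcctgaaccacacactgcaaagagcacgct

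The Padi4 match starts 56 bases before the annotated start and holds the core on its opposite strand. The Cst7 and Slc24a5 matches, which start 6 and 9 bases before the annotated starts, are on the strand opposite to the gene and do not hold the core. The log2 differences of Padi4, Cst7 and Slc24a5 were -3.61, -2.35 and -2.16.

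Of the other members with a symbol, 14 were not sorted by role. Fam131a, a gene of unknown function, had the largest difference among members well above background on all 6 arrays, with levels of -3.03, -1.66 and -1.5004 in p45-/- and 0.65, 2.78 and 2.59 in WT. Pxdc1, a PX domain gene, had levels of -1.60, -2.03 and -1.37 in p45-/- and -0.54, 2.63 and 2.49 in WT, and its WT array 1 lay closer to the p45-/- arrays than to the other WT arrays. Glod5, of the glyoxalase family, had levels of -3.67, -3.43 and -3.51 in p45-/- and -1.59, -0.008 and -0.091 in WT. The p45-/- arrays of Glod5 lay within 0.24 of each other, all above background. Phgr1, expressed in the gut, was at least 4.29-fold lower with levels of -5.96, -6.14 and -6.20 in p45-/- and -3.65, -2.34 and -3.04 in WT. Nyx, which encodes the retinal protein nyctalopin, had levels of -3.98, -4.85 and -5.30 in p45-/- and -2.39, -0.98 and -2.22 in WT, but a second Nyx probe, above background on 2 WT and 3 p45-/- arrays, differed by 1.34. Tmem125, Tmeff2, Cracdl, Nckap5, Mest, Ttc39c, Mmd and Fam71b differed by -2.62, -2.48, -2.53, -2.48, -2.31, -2.22, -2.05 and -2.05.

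Among the 18 members without a symbol, differences ran from -4.82 to -2.01 with a median of -2.36. The cDNA AK157407 had levels of -6.11, -3.86 and -2.75 in p45-/- and -0.82, 0.44 and 0.03 in WT, and AK015845 had -4.36, -4.64 and -5.01 in p45-/- and -1.16, 0.044 and -0.69 in WT. Its p45-/- array 1 was not well above background. Levels of -6.08, -3.53 and -3.18 in p45-/- and -2.53, -0.42 and -0.50 in WT were read for AK005144 and of -5.62, -5.23 and -4.95 in p45-/- and -3.13, -1.67 and -1.96 in WT for AK034221. The predicted transcript XM_140499 had levels of -3.24, -4.27 and -5.34 in p45-/- and -2.75, -0.60 and -0.83 in WT. Which genes these sequences belong to was not determined, and some could lie in members or left-out genes that have a symbol. D83202 stayed at background on the p45-/- arrays, with a difference of at least 1.81-fold.

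A further 31 probes of the array read 21 of the members. Of these 31 probes, 28 had a lower p45-/- mean, 23 by at least 1 log2 unit and 12 by at least 2. The 3 with a higher mean were probes of Nyx at 1.34, Itgb6 at 0.61 and Tmeff2 at 0.30, which were well above background on 2, 0 and 0 of the WT arrays. Dusp14 at -3.63, Tmeff2 at -3.49 and Homer2 at -2.84 were among the genes with a larger difference on another probe than on the one that represents them. Probes of Lifr at -0.70 and -0.93 and of Syt13 at -1.01 were above background on all WT arrays and differed less. These probes were read on the same arrays and RNA, so they repeat the measurement and not the experiment.

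**Figure D4:**
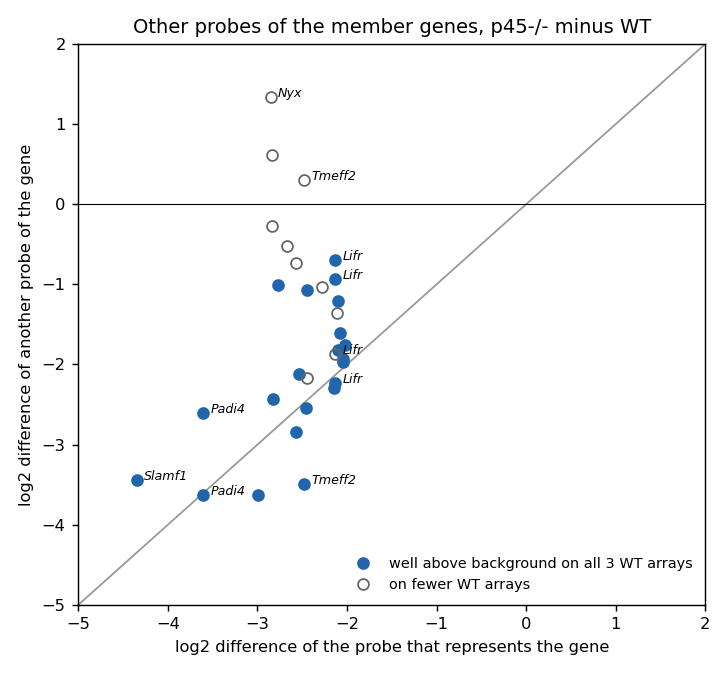
Log2 difference, p45-/- minus WT, of each of 31 other probes (vertical axis) against that of the probe that represents the member gene (horizontal axis), with filled points for the 21 probes well above background on all 3 WT arrays and open points for the rest. The line marks equal values. Of the 31 points 3 lie above 0, all of them open, and the filled points were kept by the WT readings alone.

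The members varied more among the WT arrays than other genes did. Their median WT SD was 0.86 against 0.31 over all genes scored, while their median p45-/- SD was 0.63 against 0.52. The rule used the same readings, so these spreads and the order of the arrays below are not independent of the choice of members. WT array 1 was the lowest WT array for 58 of the 74 members, 78.4%, compared with 40.4% of all genes scored. Its level lay below the mean of WT arrays 2 and 3 by a median of 1.36 log2 units for the members, where the median over all genes was 0.029 above. The largest gaps were those of Kcnf1 at -4.06, Gsta1 at -3.35 and Pxdc1 at -3.10. The megakaryocyte markers also had a lower mean level on WT array 1, 5.05, than on WT arrays 2 and 3, 6.31 and 6.30, and their part in these differences was not tested. p45-/- array 1 was the lowest p45-/- array for 34 members, 45.9%, against 61.5% of all genes scored.

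**Figure D5:**
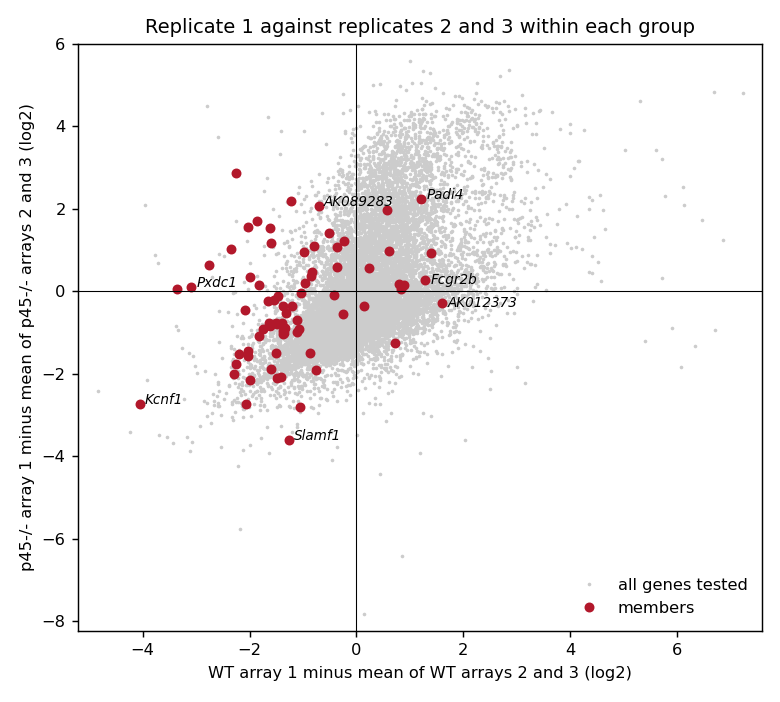
Level on WT array 1 minus the mean of WT arrays 2 and 3 (horizontal axis) against the level on p45-/- array 1 minus the mean of p45-/- arrays 2 and 3 (vertical axis), both in log2 units, for all genes scored (grey) and the 74 members (red). Most members lie left of 0, with Kcnf1 farthest at -4.06, and 12 lie right of it, among them Padi4 and Fcgr2b.

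The difference within pairs of arrays with the same replicate number had a median of -2.19, -2.89 and -2.65 for numbers 1, 2 and 3. It was -2 or lower for 39, 63 and 66 members in these pairs, and in all of them for 28. Replicates 1 and 2 lay on slide 2, where the median difference was -2.49, and replicate 3 lay on slide 1, where it was -2.65. Without p45-/- replicate 1, 55 of the 74 members still met the rule, and without WT replicate 1, 69 did. When replicate 1 of both groups was left out the median was -2.75 and 67 members still met the rule. Over all genes, 148 met the rule without WT replicate 1 and 112 without replicate 1 of both groups.

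WT array 1 lay above the mean of WT arrays 2 and 3 for 12 members. Among them were Fcgr2b, Padi4, Cd69, Ttc39c, Il12rb1, Hacd4 and 5 without a symbol. Padi4 is also expressed in neutrophils. All 15 neutrophil markers on the array were tested, and all 15 had a lower p45-/- mean, with a median of -0.81. Their mean level was 4.04, 3.52 and 2.57 on WT arrays 1, 2 and 3 and 3.04, 2.46 and 2.05 on the p45-/- arrays, and its part in the levels of these members was not tested. limma called 0 of the neutrophil markers with or without the block, and the smallest unadjusted p belonged to Ctsg at -1.26 (SE 0.30, limma adjusted p = 0.495) and Mmp8 at -1.79 (SE 0.43, limma adjusted p = 0.502).

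Markers of further cell types differed in direction. Of 19 mast cell and basophil markers tested, 12 were lower and 7 higher in p45-/-, with a median of -0.71. Their mean level was -1.73 to -0.33 on the p45-/- arrays and -1.06 to 0.08 on the WT arrays. A further 7 on the array were not above background, among them Mcpt1, Mcpt4 and Tpsg1. Of 21 erythroid markers 18 were higher in p45-/-, with a median of 1.80 and a mean level of 0.30 to 1.16 against -1.12 to -0.45 in WT. Monocyte and macrophage markers had a median of -0.037 over 16 genes and eosinophil markers -0.27 over 8, and both medians lay above 0 without replicate 1 of both groups. Hepatocyte markers were higher for 14 of 14, with a median of 0.93, and stromal and endothelial markers for 14 of 18, with a median of 0.45, or -0.058 with the shift of median scaling. For replicate 1 the mean level of both lists was lower in p45-/-. It was 0.13 against 0.43 in WT for hepatocyte markers and -1.004 against -0.64 for stromal and endothelial markers. For replicates 2 and 3 it was higher in p45-/-. Lymphoid markers had a median of 0.67 over 10 genes, 3 lower and 7 higher in p45-/-. That median was 0.16 with median scaling and also 0.16 with quantile normalization. Cd3e, Cd79a, Rag1 and Ncr1 were among the 9 not above background. The members Cd69, Il12rb1, Il21r and Txk are genes also known from lymphocytes. The stem and progenitor list, which holds Slamf1, had a median of -0.60 over its 11 other genes, 7 lower and 4 higher in p45-/-. Among the lower ones were Gata2 at -1.98 (SE 0.42, limma adjusted p = 0.418) and Myb at -1.05 (SE 0.32, limma adjusted p = 0.67). limma called 0 genes of these marker lists with or without the replicate block, and the part of other cells in the members' levels was not tested.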

How the data were processed

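RNA of 3 p45-/- and 3 WT megakaryocyte samples was read on single-colour Agilent arrays. The deposited values are spot intensities as processed by Agilent Feature Extraction, version 10.7.3.1 per the file headers and 10.1 per the submitters' processing notes. The authors' deposited series table holds the same intensity values within 0.497%, on a linear scale and not centred, with column medians of 20.9 to 42.0. With 1 channel an intensity has no direction.

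From these, log2 levels were computed per probe after leaving out control spots and spots flagged as outliers (32 to 80 per array), and the 75th percentile of each array was subtracted. No spot was saturated. Of 41174 probes, 26690 were given a symbol by matching unversioned accessions to a RefSeq table of GRCm38.p6, used for names and gene order. The probe with the highest mean over the 6 arrays stood for its gene. All genes that passed the filter, members included, were tested with limma 3.58.1 in R 4.3.3 (lmFit, eBayes, two-sided, Benjamini-Hochberg adjustment over the 18201 genes whose probe passed the background flag on every array of either group). The procedure was first run on simulated data with less spread than these arrays, so that run does not show how it performs on them. The members' own results of the limma test are not printed. The number of arrays limits the precision, and an exact permutation test of 3 against 3 cannot go below p = 0.1.

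Members and gene lists were chosen with earlier results of these data known, and role groups after the members were known. The values of 1 member are not reported here, though it is part of the counts and medians. Among genes that are not members, those named from a list have its smallest unadjusted p, up to 2 a list, and some marker lists are given without names. The deviations of same-numbered p45-/- and WT arrays from their group means correlated at 0.647, 0.589 and 0.271, so the numbers were taken as pairs from the data, not from the labels. Slide 1 held replicate 3 of both groups, and slide 2 held the other 4 arrays. Alternatives covered scaling, background correction, probe choice, filters, thresholds, left-out arrays, slides and blocks. The planned normexp correction on the mean signal was run on the median signal, since the files used hold no mean signal. This was chosen after seeing the data.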

Additional observations from a re-analysis of the deposited data

How the results depend on the processing

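The rule gave 74 members with a median difference of -2.499, and all medians of differences below are of these same 74 members. Scaling to each array's median shifted every gene by -0.51, so the members' median was -3.01, and 162 genes met the rule. The normexp background correction, chosen after seeing the data, gave a members' median of -1.501. Under it 27 genes met the rule, and 21 of the 74 members still did. The count of genes that met the rule was 112 without replicate 1 of both groups and 140 within slide 1. It was 40 when all 6 arrays had to be well above background, 151 at a difference of -1.5 or lower and 37 at -2.5 or lower. Leaving out 1 array at a time gave 69 to 148 genes that met the rule and 0 to 1 limma calls. The median of the 74 members was then -2.95 to -2.35. Without WT replicate 1 the values were 148 genes, 1 call and a members' median of -2.95. limma called 0 genes as reported, 10 with median scaling, 18 without replicate 1 of both groups, 2 with the filter on WT arrays alone and 505 with array weights, where p45-/- array 1 had a weight of 0.0979. With the replicate block, whose pairs were taken from the data and not from the labels, it called 5. The core motif was in 1 promoter and the extended site in 3. Itgb6 was at 0.15 with normexp. List medians changed sign for alpha granule contents (0.13), dynein and cilium (0.077), monocytes (0.36) and eosinophils (0.064) without replicate 1 of both groups, for monocytes with quantile normalization (0.22), and for ABC and sterol transport (-0.33) and stromal cells (-0.058) through the common shift of median scaling. The cause of these changes was not tested, except that median scaling shifts all genes alike and stricter filters and thresholds keep fewer genes by construction. Signal near background on p45-/- arrays limits the weakest members.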
